A study of Homo sapiens with 9 samples.

Results

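The KEAP1-NRF2 regulators and partner factors described here are 10 genes, taken by name and covering the KEAP1 ubiquitin ligase, its adaptor p62, the CNC transcription factors and their small MAF partners. They are KEAP1, CUL3, RBX1, SQSTM1, NFE2L2, NFE2L1, BACH1, MAFG, MAFF and MAFK. All 10 were found by gene number among 12798 rows of the count table, and all 10 passed the filter on low counts that left 11064 features tested.

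RNA was sequenced from HepG2, an established human liver cancer line. All cells carried the lentiCRISPRv2 vector, which delivers Cas9 with 1 guide RNA, were selected with puromycin and were collected 48 h after seeding. The sgCtrl cells carried a guide against AAVS1, a site within an intron that is used as a neutral target for cutting. The sgKeap1-1 and sgKeap1-2 cells each carried a different guide against KEAP1. Each group had 3 libraries, numbered 1 to 3, and nothing in the labels says whether these came from separate transductions, so that p-values measure only the spread between these libraries. The vector gives a selected population and not a clone, and in such bulk RNA fewer cells with a transcript and less of it per cell cannot be told apart. The libraries held 3011644 to 4725840 counted reads with a gene number (median 3758185). The 13 hepatocyte markers examined, ALB, AFP and APOB among them, were all in the table, with a summed level of 41294 to 50470 CPM (counts scaled to library size, with TMM factors) in the sgCtrl libraries, 28283 to 35744 with sgKeap1-1 and 24938 to 27910 with sgKeap1-2. By edgeR 7 of the 13 fell and 1 rose with sgKeap1-1, where 1.40% of all features fell and 2.80% rose. With sgKeap1-2, 8 fell and 1 rose, where 4.85% of all features fell and 5.96% rose. ALB fell from a mean of 13657 to 6388 and 4319.9 CPM and AFP from 6026 to 2500.3 and 1154 CPM, while TTR rose from 387 to 599.6 and 607 CPM and APOB, at 4841 CPM in sgCtrl, was at 4654 and 4932 CPM. Of 10 markers of other cell types, 2 were in the table (PDGFRB and COL1A1) and their summed level was 6.16 to 15.9 CPM in any library. The part of these marker levels in the results below was not tested.

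KEAP1 is the substrate adaptor of a cullin-RING ubiquitin ligase. It binds NRF2, the protein of NFE2L2, and presents it to CUL3 and the RING protein RBX1, so that NRF2 is made and degraded continuously and its level is set mainly after transcription. NRF2 that escapes this degradation, as after loss of KEAP1, acts at antioxidant response elements paired with a small MAF protein. BACH1 also pairs with small MAF proteins and represses at much the same elements until heme releases it, while p62, the protein of SQSTM1, is an autophagy receptor that can dock on KEAP1 and take it to the autophagosome.

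The guides are shown because they fix where the targeted gene was cut. Each guide matched 1 place on chromosome 19 of GRCh37 without mismatch. They are printed 5′ to 3′ on the strand of the guide, the guide in capitals, with 20 genomic bases before it and the PAM and 20 further bases after it.
sgKeap1-1: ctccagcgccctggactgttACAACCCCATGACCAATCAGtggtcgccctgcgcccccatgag
sgKeap1-2: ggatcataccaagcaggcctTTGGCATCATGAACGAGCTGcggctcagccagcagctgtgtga
sgCtrl (AAVS1): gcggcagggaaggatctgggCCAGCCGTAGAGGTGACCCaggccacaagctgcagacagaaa
The sgKeap1-1 site lies at chr19:10602372-10602391 on the minus strand, in exon 3 of 6 of the canonical KEAP1 transcript, next to a TGG PAM. Its expected cut, 3 bases before the PAM, falls in codon 401 of 623, at 64.3% of the coding length. The sgKeap1-2 site lies at chr19:10610500-10610519 on the same strand in exon 2, next to a CGG PAM, with the cut in codon 69 at 11.1% of the coding length. The AAVS1 site lies at chr19:55627855-55627873 on the plus strand.

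The level of KEAP1 mRNA did not part the KEAP1 KO cells from the controls. KEAP1 (gene number 9817) was measured at 63.3, 89.2 and 85.3 CPM in sgCtrl libraries 1 to 3, at 64.1, 62.5 and 53.4 CPM with sgKeap1-1 and at 81.9, 85.6 and 73.9 CPM with sgKeap1-2. The sgKeap1-1 libraries sat low and the sgKeap1-2 libraries sat within the control range, and each group overlapped with sgCtrl. Against sgCtrl, sgKeap1-1 gave a log2 fold change of -0.40 (SE 0.15, 95% interval -0.73 to -0.07, adjusted p = 0.211 from edgeR, adjusted by Benjamini-Hochberg over all tested features) and sgKeap1-2 one of 0.02 (interval -0.30 to 0.35, adjusted p = 0.952 from edgeR). The guides themselves did not overlap, as for 5.50% of all features in that direction, and KEAP1 was 0.42 higher on the log2 scale with sgKeap1-2 than with sgKeap1-1 (interval 0.10 to 0.75, unadjusted p = 0.0148 and adjusted p = 0.9 from edgeR). QuantSeq reads the 3′ end of a transcript. The cuts lie 1199 and 2195 bases from the end of the KEAP1 transcript and the last exon holds 694 bases, so the reads fall outside both cut exons and their number does not check the labels. That check came from the canonical NRF2 targets, a list of 8 genes of which 7 were tested and SRXN1 was not in the table. Of these, 6 rose with sgKeap1-1 and 7 with sgKeap1-2, beside 2.80% and 5.96% of all features, with median log2 fold changes of 1.77 and 2.18. The list of 8 does not include HMOX1, which stands with the BACH1-repressed targets below. HMOX1 was not called with either guide (log2 fold changes 0.05 and -0.01), and the lists were chosen with earlier results of these data known. NQO1, the quinone reductase, was at 536, 521 and 505 CPM in the sgCtrl libraries, at 1442, 1360.3 and 1265 CPM with sgKeap1-1 and at 1899.7, 1769 and 1545 CPM with sgKeap1-2.

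**Figure D1:**
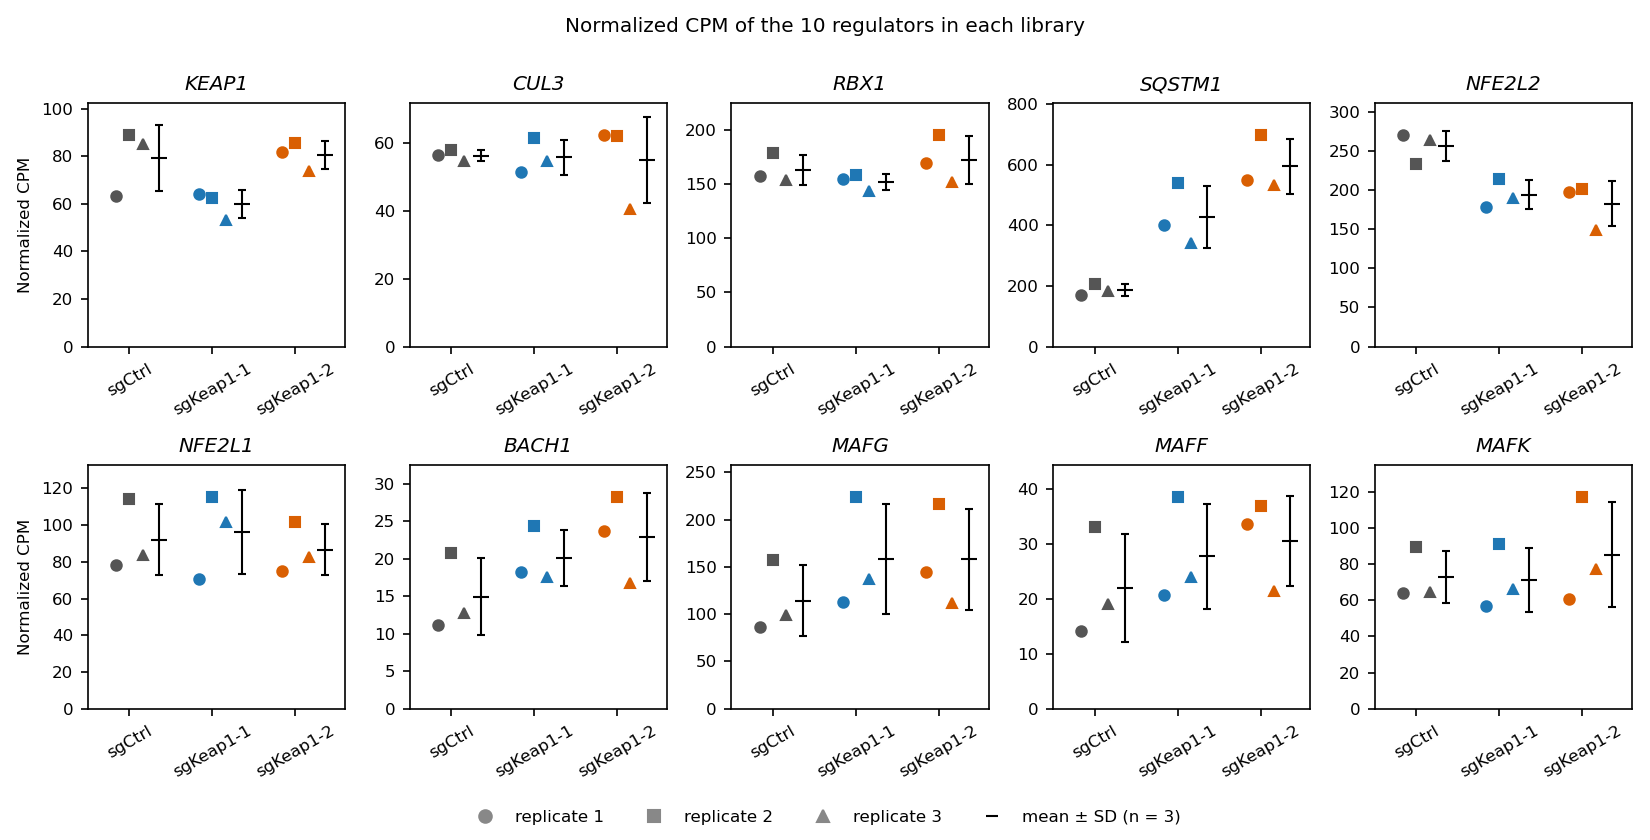
Normalized CPM (y axis, from 0, scaled per gene) of the 10 regulators in each library of sgCtrl, sgKeap1-1 and sgKeap1-2, with marker shape for the replicate number and the bar for mean ± SD (n = 3). SQSTM1 lay above every control library in all 6 KEAP1 KO libraries and NFE2L2 lay below every control library in the same 6.

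SQSTM1 was the regulator with the widest change and the only one of the 10 called with both guides in the fit by group alone. SQSTM1 (gene number 8878) was at 169, 208 and 182 CPM in sgCtrl libraries 1 to 3, at 401, 540.3 and 342 CPM with sgKeap1-1 and at 550.1, 699 and 534 CPM with sgKeap1-2. Every KEAP1 KO library was above every control library. For each guide taken alone, this held for 11.5% of all tested features with sgKeap1-1 and 14.3% with sgKeap1-2. The share for both guides together is not given here. The group mean went from 186 ± 19.7 CPM (SD, n = 3) to 428 ± 102 and 595 ± 91.0 CPM (SD, n = 3 each), which is 2.29 and 3.19 times the control mean. On the log2 scale SQSTM1 rose by 1.20 with sgKeap1-1 (SE 0.17, adjusted p = 0.000638 from edgeR) and by 1.67 with sgKeap1-2 (SE 0.17, adjusted p = 1.9e-05 from edgeR). A larger change in size was found for 3.49% and 2.80% of all tested features.

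SQSTM1 was higher with sgKeap1-2 than with sgKeap1-1 in each of the 3 same-numbered differences, by 0.45, 0.37 and 0.64 on the log2 scale. The libraries of the guides overlapped, since sgKeap1-1 replicate 2 (540.3 CPM) was above sgKeap1-2 replicate 3 (534 CPM). The fitted difference was 0.47 (95% interval 0.12 to 0.83, unadjusted p = 0.0126) and did not pass the threshold over all features (adjusted p = 0.9 from edgeR). Within the sgKeap1-1 group replicate 2 was high and replicate 3 low, a spread of 342 to 540.3 CPM.

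NFE2L2, which encodes NRF2 itself, was lower in both KEAP1 KO groups. NFE2L2 (gene number 4780) was at 271, 234 and 264 CPM in the sgCtrl libraries, at 178, 214 and 189.6 CPM with sgKeap1-1 and at 197, 201 and 149 CPM with sgKeap1-2. All 6 KEAP1 KO libraries were below the lowest control library. For each guide taken alone, 10.3% of all features had such a placing with sgKeap1-1 and 13.7% with sgKeap1-2. The share of features with all 6 below the controls is not given here. The mean was 256 ± 19.7 CPM (SD, n = 3) in sgCtrl, 194 ± 18.5 with sgKeap1-1 and 182 ± 28.6 with sgKeap1-2, or 0.758 and 0.712 of the control mean. On the log2 scale NFE2L2 fell by 0.49 with sgKeap1-2 (SE 0.14, adjusted p = 0.0347 from edgeR), while the log2 fold change of -0.40 with sgKeap1-1 did not pass the threshold (SE 0.14, adjusted p = 0.146 from edgeR). The guides differed by -0.09 (interval -0.39 to 0.21, adjusted p = 0.986 from edgeR), so a difference between them was not shown. With the mean of both guides NFE2L2 fell by 0.45 (SE 0.12, adjusted p = 0.0261 from edgeR).

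The call of NFE2L2 with sgKeap1-2 lay close to the threshold. Its adjusted p from edgeR ranged from 0.0295 to 0.134 when 1 library at a time was left out, with log2 fold changes of -0.56 to -0.37. It rose above 0.05 without sgCtrl replicate 1 (0.134), without sgCtrl replicate 3 (0.118), without replicate 1 (0.051) or 3 (0.0509) of sgKeap1-1 and without replicate 1 (0.0588) or 3 (0.0743) of sgKeap1-2. With only sgCtrl and sgKeap1-2 in the fit it was 0.0549. The change of NFE2L2 with sgKeap1-1, uncalled in the fit by group alone, passed the test with the replicate block (adjusted p = 0.0437 from edgeR) and, with no block, without sgKeap1-2 replicate 3 (adjusted p = 0.043 from edgeR). For the mean of both guides the call was lost without replicate 1 or 3 of sgCtrl and without replicate 1 or 3 of sgKeap1-1, with the adjusted p reaching 0.143. SQSTM1 kept its calls in each of the same fits.

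Counted over the 10 regulators, 1 was called with sgKeap1-1, against 4.20% of all tested features. With the replicate block 3 were called, SQSTM1 and MAFG higher and NFE2L2 lower, beside 977 of the 11064 features. In the fit by group alone it was SQSTM1, which rose, as did 2.80% of features, while 1.40% of features and none of the 10 fell. With sgKeap1-2, 2 were called, against 10.8% of all features. SQSTM1 rose, as did 5.96% of features, and NFE2L2 fell, as did 4.85%. The mean of both guides called 2 as well, against 10.1%. Counts of 1 and 2 among 10 genes are too few to be set apart from these shares, which themselves move. The 465, 1196 and 1115 features called went to 278, 764 and 671 without sgCtrl replicate 1 and to 287, 778 and 643 without sgCtrl replicate 3, and with sgKeap1-1 to 285 without sgKeap1-1 replicate 1. The log2 fold changes of the 10 regulators had a median of 0.03 with sgKeap1-1 and 0.16 with sgKeap1-2, beside 0.00 and -0.01 over all tested features. Both guides were compared with the same 3 sgCtrl libraries. Between the guides edgeR called 0 of the 10, against 0.0181% of all features (2 features, 26 with the replicate block, 19 with DESeq2 and 0 with limma-voom), while 2 of the 10 (KEAP1 and SQSTM1) had an unadjusted p under 0.05, as had 5.08% of all features, and limma-voom and DESeq2 also called 0 of the 10. The 2 features went to 0 without any 1 of the sgCtrl libraries, sgKeap1-1 replicate 2 or 3 or sgKeap1-2 replicate 1, and to 1 without sgKeap1-2 replicate 2 or 3.

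**Figure D2:**
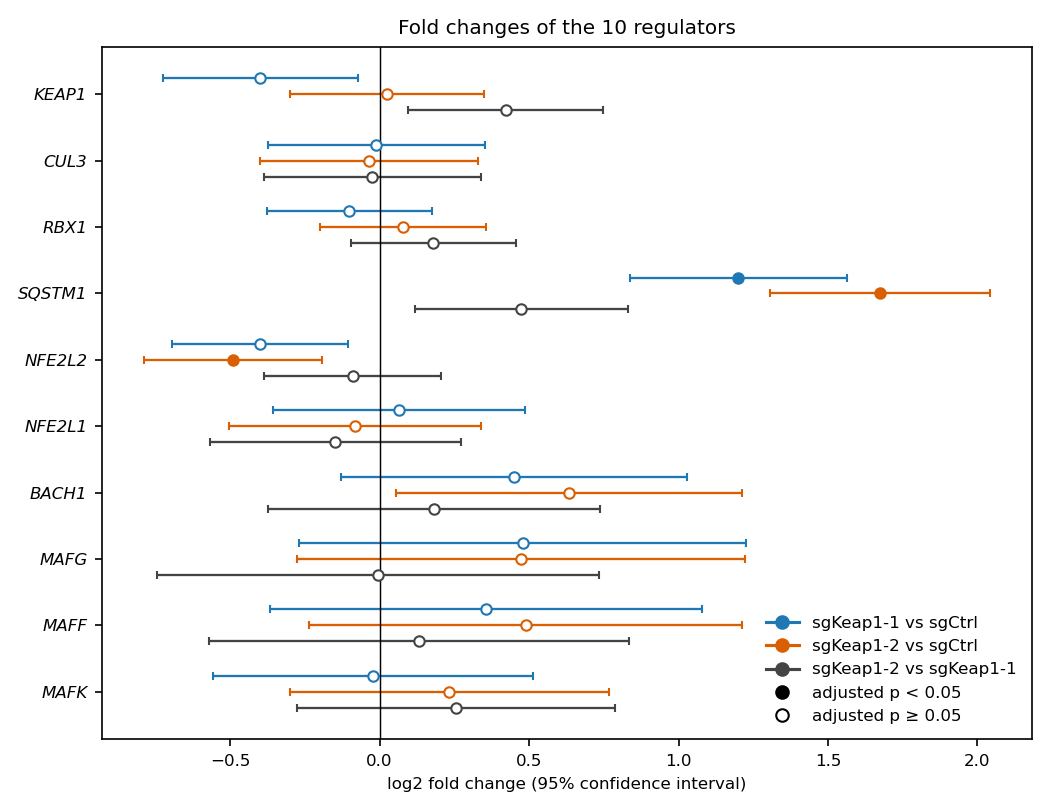
Log2 fold change (x axis) with 95% confidence interval for each of the 10 regulators, for sgKeap1-1 and sgKeap1-2 against sgCtrl and for sgKeap1-2 against sgKeap1-1. Filled points have an adjusted p under 0.05: SQSTM1 with both guides and NFE2L2 with sgKeap1-2.

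The scaffold and the RING subunit of the ligase stayed near the control level. CUL3 (gene number 8452), the cullin that KEAP1 bridges to its substrate, was at 56.4, 57.8 and 54.7 CPM in sgCtrl, at 51.4, 61.4 and 54.7 CPM with sgKeap1-1 and at 62.5, 62.2 and 40.5 CPM with sgKeap1-2. The groups overlapped, with sgKeap1-2 replicate 3 apart on the low side. Its log2 fold changes were -0.01 (interval -0.37 to 0.35) and -0.04 (interval -0.40 to 0.33). RBX1 (gene number 9978), which recruits the E2 enzyme to cullins, was at 158, 179 and 154 CPM in sgCtrl, at 155, 159 and 144 CPM with sgKeap1-1 and at 169.9, 196 and 152 CPM with sgKeap1-2. Its log2 fold changes were -0.10 (interval -0.38 to 0.18) and 0.08 (interval -0.20 to 0.35).

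BACH1, the repressor that competes with NRF2 for small MAF partners, had the lowest level of the 10. BACH1 (gene number 571) was at 11.1, 20.8 and 12.8 CPM in sgCtrl, at 18.3, 24.4 and 17.6 CPM with sgKeap1-1 and at 23.7, 28.3 and 16.7 CPM with sgKeap1-2, from 42 to 116 reads a library. It was higher than the same-numbered control in 3 of 3 libraries for each guide, but sgCtrl replicate 2 lay within the range of both KEAP1 KO groups. The log2 fold changes were 0.45 (SE 0.27, interval -0.13 to 1.03, adjusted p = 0.497 from edgeR) and 0.63 (SE 0.27, interval 0.05 to 1.21, adjusted p = 0.169 from edgeR). The ratio of NFE2L2 to BACH1 reads was 24.3, 11.3 and 20.6 in the sgCtrl libraries, 8.79 to 10.8 with sgKeap1-1 and 7.09 to 8.94 with sgKeap1-2, without overlap with the controls. How often ratios of other gene pairs lack overlap was not computed, so this placing has no share to be read against. NFE2L1 encodes NRF1, the related factor that is held in the endoplasmic reticulum and induces proteasome genes. NFE2L1 (gene number 4779) was at 78.2, 114 and 83.7 CPM in sgCtrl, at 70.9, 115 and 102 CPM with sgKeap1-1 and at 75.1, 102 and 82.9 CPM with sgKeap1-2. Its groups overlapped fully, and its log2 fold changes were 0.07 (interval -0.36 to 0.49) and -0.08 (interval -0.50 to 0.34).

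The small MAF genes encode short bZIP proteins without an activation domain that serve both NRF2 and BACH1 as partner. MAFG (gene number 4097) was at 86.4, 157 and 99.0 CPM in sgCtrl, at 113, 224 and 138 CPM with sgKeap1-1 and at 145, 217 and 112 CPM with sgKeap1-2. The groups overlapped because replicate 2 stood high in each of them. The log2 fold changes of MAFG were 0.48 (SE 0.33, interval -0.27 to 1.23, adjusted p = 0.592 from edgeR) and 0.47 (SE 0.33, interval -0.28 to 1.22, adjusted p = 0.453 from edgeR), and neither passed the threshold in the fit by group alone. With the replicate number as a block, for which the sgCtrl and sgKeap1-1 libraries met the pairing check, MAFG rose with sgKeap1-1 by 0.46 (adjusted p = 0.0256 from edgeR). MAFF (gene number 23764), the stress-inducible member, was at 14.0, 33.0 and 19 CPM in sgCtrl, at 20.7, 38.6 and 23.9 CPM with sgKeap1-1 and at 33.6, 36.8 and 21.3 CPM with sgKeap1-2. Its log2 fold changes of 0.36 and 0.49 had intervals from -0.37 to 1.08 and from -0.24 to 1.21, which hold a fall as well as a rise. MAFK (gene number 7975) was at 64.1, 89.5 and 64.7 CPM in sgCtrl, at 57.0, 91.1 and 66.0 CPM with sgKeap1-1 and at 61.0, 117 and 77 CPM with sgKeap1-2. Its log2 fold changes were -0.02 and 0.23 (adjusted p = 0.986 and 0.639 from edgeR).

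Compared within replicate numbers, MAFG and MAFF were above the same-numbered control in 3 of 3 libraries for each guide. For MAFG the differences were 0.39, 0.51 and 0.47 on the log2 scale with sgKeap1-1 and 0.74, 0.47 and 0.17 with sgKeap1-2. MAFK was above its same-numbered control in 2 of 3 for each guide. In the sample descriptions the libraries of 1 number share a prefix across the 3 groups, and the labels do not say what that prefix marks. The summed small MAF level was 165, 279 and 183 CPM in sgCtrl, 191, 354 and 227 CPM with sgKeap1-1 and 239, 371 and 210.1 CPM with sgKeap1-2. MAFG made up most of that sum, with 52.5 to 56.2% in sgCtrl, 59.3 to 63.4% with sgKeap1-1 and 53.2 to 60.5% with sgKeap1-2, while MAFF held 8.53 to 14.0% in any library. The sum per NFE2L2 read was 0.608, 1.20 and 0.692 in sgCtrl, 1.07, 1.65 and 1.20 with sgKeap1-1 and 1.22, 1.85 and 1.41 with sgKeap1-2, where sgKeap1-1 overlapped with the controls through sgCtrl replicate 2 and sgKeap1-2 did not overlap. No share over other such ratios was computed.

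**Figure D3:**
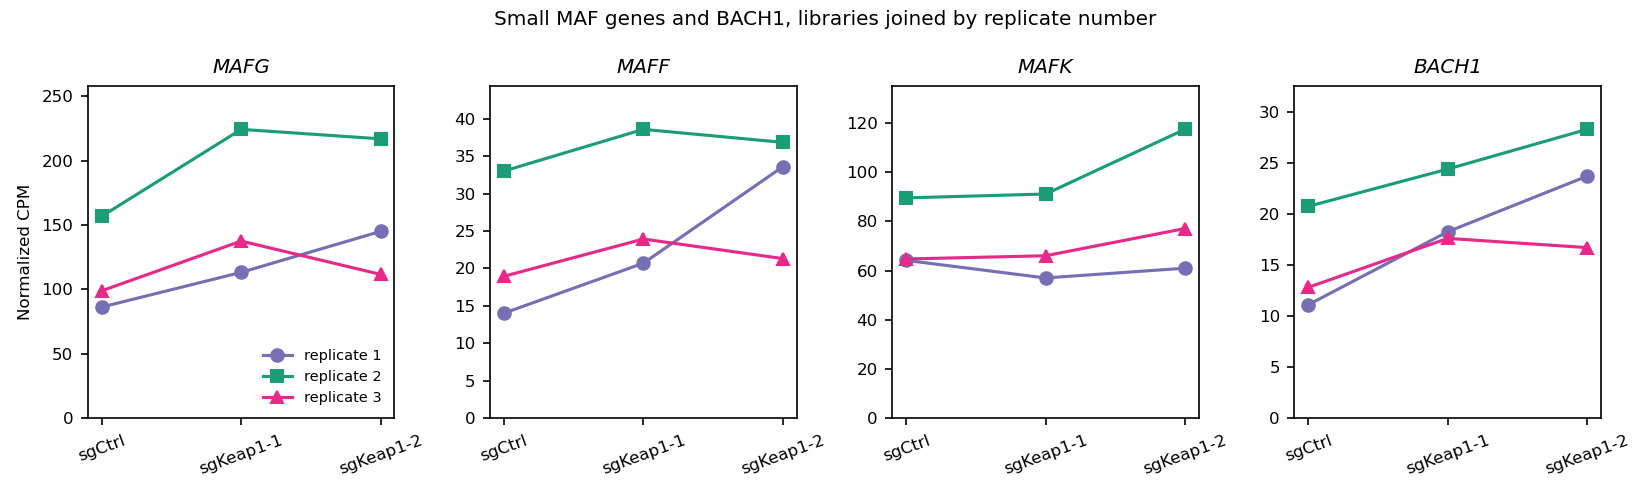
Normalized CPM (y axis, from 0) of MAFG, MAFF, MAFK and BACH1 in sgCtrl, sgKeap1-1 and sgKeap1-2, with libraries of the same replicate number joined by a line. Replicate 2 was the highest library of every group for all 4 genes, and the lines of MAFG, MAFF and BACH1 lie above their sgCtrl point in all 6 KEAP1 KO libraries.

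The replicate number moved with several of the regulators. Replicate 2 was the highest of its group in all 3 groups for 7 of the 10 (NFE2L1, BACH1, MAFG, MAFF, MAFK, RBX1 and SQSTM1), as it was for 12.2% of all tested features. Replicate 1 was the highest in all 3 groups for 3.63% of features and replicate 3 for 7.35%. For MAFG, the highest and lowest libraries of a group were 157 and 86.4 CPM in sgCtrl, a wider gap than that between any pair of group means. The part of the replicate number in the differences between groups was not tested here beyond the fit given with the processing alternatives.

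Since each transcript gives reads only near its end, CPM can be ranked between genes without division by length. In sgCtrl cells NFE2L2 was the highest of the 10 (256 ± 19.7 CPM), and its libraries did not overlap with those of SQSTM1 (186 ± 19.7 CPM). SQSTM1, RBX1 (164 ± 13.8), MAFG (114 ± 37.6), NFE2L1 (92.1 ± 19.5), KEAP1 (79.3 ± 13.9) and MAFK (72.8 ± 14.5) followed, each overlapping with its neighbour in that order. CUL3 (56.3 ± 1.60) lay below MAFK without overlap, and MAFF (22.0 ± 9.84) and BACH1 (14.9 ± 5.14) were lowest and overlapped with each other (all SD, n = 3). In both KEAP1 KO groups SQSTM1 took the first place and NFE2L2 the second, with no overlap between them. There were between 2.14 and 2.67 SQSTM1 reads per KEAP1 read in the sgCtrl libraries, between 6.26 and 8.64 with sgKeap1-1 and between 6.72 and 8.17 with sgKeap1-2, without overlap with the controls. For this ratio too, no share over other gene pairs was computed.

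Some members share their 3′ end with a neighbour, which bears on counts made there. The last 500 bases of SQSTM1 overlap with MRNIP on the opposite strand, and whether the counting used strand is not given in the sources used here. MRNIP was at 11.2 to 18.3 CPM in every library, with log2 fold changes of -0.25 and -0.31 (adjusted p = 0.712 and 0.475 from edgeR). MAFG overlaps with SIRT7 on the same strand, and SIRT7 was at 56.2, 33.0 and 42.4 CPM in sgCtrl and at 62.5, 66.1 and 77.8 CPM with sgKeap1-2, where it rose by 0.64 on the log2 scale (adjusted p = 0.0433 from edgeR). With sgKeap1-1 SIRT7 was at 61.1, 45.7 and 58.1 CPM and was not called (log2 fold change 0.32, adjusted p = 0.495 from edgeR). MAFK overlaps with TMEM184A on the opposite strand (16.6 to 25.5 CPM). CUL3 overlaps with a long noncoding RNA on the opposite strand. Reads of SQSTM1, MAFG, MAFK and CUL3 could therefore be split or lost between neighbours.

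The sequence before each gene's start was searched for the antioxidant response element in its strict form TGACTCAGC, on both strands, in the 2000 bases before the canonical start in GRCh37. This search was made after the values were known. Among 19812 such windows of protein-coding genes, 2.53% held the motif and 0.0505% (10 windows) held it at least 2 times. SQSTM1 was the only one of the 10 regulators with a match, and it had 2, which are shown because SQSTM1 changed most of the 10. They are printed 5′ to 3′ on the strand that holds the motif, opposite to the gene, with the motif in capitals.
SQSTM1, 1320 bases before the start: tggccaagcgTGACTCAGCagcccaggcg
SQSTM1, 352 bases before the start: ggcctggccaTGACTCAGCaatatcctca
The motif lies at chr5:179246585-179246593 in the first and at chr5:179247553-179247561 in the second, within the gene as annotated, because other SQSTM1 transcripts start further upstream (gene at chr5:179233398-179265078, plus strand). The relaxed form TGACNNNGC was in 52.4% of these windows and tells little. Close to the start, in RefSeq windows of GRCh38.p14 from 250 bases before to 50 after, the relaxed form was in 13.3% of 35116 windows. Counted by gene symbol, it was in 16.1% of 27305. Of the 9 regulators with an entry, KEAP1, MAFF and RBX1 held it, in 3 of the 18 windows of these 9. None of the 9 held the strict form, which was in 0.561% of windows and 0.689% of symbols. MAFK had no entry. A match is a run of letters and does not show that a factor binds there.

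The rest of the pathway was read from 61 further regulators in 7 lists, of which 57 were tested. With sgKeap1-1, 4 of the 57 were called (1 higher, 3 lower), or 7.02%, beside 4.20% of all tested features. With sgKeap1-2 also 4 were called (2 higher, 2 lower), or 7.02%, beside 10.8% of all features. The count with sgKeap1-1 fell to 0 without replicate 1 of sgCtrl or of sgKeap1-1, to 1 without sgCtrl replicate 3 or replicate 2 or 3 of sgKeap1-1, and to 2 without replicate 1 or 2 of sgKeap1-2. The median log2 fold change of the 57 was -0.01 with either guide. None of 15 genes of the cullin-RING machinery was called by edgeR, limma-voom or DESeq2. They include NEDD8, the E1 and E2 enzymes that attach it to cullins, subunits of the COP9 signalosome, which removes it, and CAND1. With either guide 0 of the 15 had an unadjusted p under 0.05 from edgeR against sgCtrl, beside 15% of all features with sgKeap1-1 and 23.3% with sgKeap1-2. None of 6 p62 kinases, TBK1 and ULK1 among them, was called by these tools. At an unadjusted p under 0.05 there were 0 with sgKeap1-1 and 1 with sgKeap1-2 (ULK1, log2 fold change 0.54, adjusted p = 0.0595 from edgeR). Of 10 CNC and bZIP relatives 7 were in the table and 6 were tested, and 0 were called by any of these tools, with 0 and 1 at an unadjusted p under 0.05. The 1 was JUN, an AP-1 subunit that can pair with NRF2, with log2 fold changes of 0.87 and 0.89 (adjusted p = 0.333 and 0.204 from edgeR).

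The other regulators that passed the test were CDKN1A, DDI2, RXRA, SMARCA4 and BTRC. CDKN1A encodes p21, a cell cycle inhibitor that binds NRF2 and hinders its ubiquitination by KEAP1. CDKN1A was at 66.5, 64.0 and 69.7 CPM in sgCtrl, at 119, 98.9 and 93.1 CPM with sgKeap1-1 and at 126, 118 and 131 CPM with sgKeap1-2, without overlap, and rose by 0.64 and 0.90 on the log2 scale (adjusted p = 0.0111 and 0.000407 from edgeR). Such a placing above the controls was found for 11.5% of all tested features with sgKeap1-1 and 14.3% with sgKeap1-2. DDI2 encodes the protease that cleaves NRF1 and so frees it to act. DDI2 was at 126, 127 and 127 CPM in sgCtrl, at 92.1, 96.5 and 90.7 CPM with sgKeap1-1 and at 82.2, 88.0 and 84.8 CPM with sgKeap1-2, and fell by 0.44 and 0.58 (adjusted p = 0.0413 and 0.00458 from edgeR). The call of DDI2 with sgKeap1-2 held without any 1 library. Its call with sgKeap1-1 was lost without any 1 of the sgCtrl libraries (adjusted p from edgeR 0.126, 0.0976 and 0.143), any 1 of the sgKeap1-1 libraries (0.154, 0.0825 and 0.123) or replicate 1 or 2 of sgKeap1-2 (0.0664 and 0.0543). CDKN1A lost its call with sgKeap1-1 without sgCtrl replicate 1 (0.0588) or sgKeap1-1 replicate 1 (0.0766) and kept that with sgKeap1-2. The other 5 genes of NRF1 processing were not called, nor was NFE2L1 itself.

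RXRA encodes a nuclear receptor that binds NRF2 and represses it. RXRA was at 138, 109 and 136 CPM in sgCtrl, at 90.9, 84.1 and 83.1 CPM with sgKeap1-1 and at 89.3, 90.2 and 95.9 CPM with sgKeap1-2, and fell by 0.57 and 0.48 on the log2 scale (adjusted p = 0.0197 and 0.0286 from edgeR). SMARCA4 encodes BRG1, a chromatin remodelling ATPase that assists NRF2 at some targets. SMARCA4 was at 224, 186 and 253 CPM in sgCtrl, at 293, 257 and 277 CPM with sgKeap1-1 and at 332, 310.5 and 437 CPM with sgKeap1-2. It rose by 0.70 with sgKeap1-2 (adjusted p = 0.00736 from edgeR), while its log2 fold change with sgKeap1-1 was 0.32 (adjusted p = 0.345 from edgeR). A difference of SMARCA4 between the guides was not called. BTRC encodes an F-box protein that degrades NRF2 after phosphorylation by GSK3, without KEAP1. BTRC was at 30.5, 25.5 and 34.9 CPM in sgCtrl, at 20.7, 16.1 and 19.2 CPM with sgKeap1-1 and at 20.01, 21.2 and 21.1 CPM with sgKeap1-2, and fell by 0.70 with sgKeap1-1 (adjusted p = 0.0479 from edgeR), with -0.55 for sgKeap1-2 (adjusted p = 0.079 from edgeR). The other 6 genes of its list were not called with either guide. FBXW11, also an F-box gene of that list, had means of 33.7 CPM in sgCtrl, 36.8 with sgKeap1-1 and 33.6 with sgKeap1-2. The log2 fold change of BTRC with sgKeap1-1 stayed between -0.81 and -0.59 whichever library was left out, but its call lay at the threshold. It was lost with at least 10 counts asked of every library (0.0549), with only the groups compared (0.0523), with rows without a gene number kept (0.0513) and without sgCtrl replicate 1 (0.154) or 3 (0.231), any 1 of the sgKeap1-1 libraries (0.087, 0.166 and 0.107) or replicate 1 or 2 of sgKeap1-2 (0.0739 and 0.055). RXRA lost its call with sgKeap1-1 without sgCtrl replicate 1 (0.114) or 3 (0.109) or any 1 of the sgKeap1-1 libraries (0.0584, 0.0656 and 0.0771), and that with sgKeap1-2 without sgCtrl replicate 1 (0.126) or 3 (0.12) or sgKeap1-2 replicate 1 (0.0971) or 2 (0.0926), or with only the groups compared (0.0537). SMARCA4 kept its call without any 1 library.

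**Figure D4:**
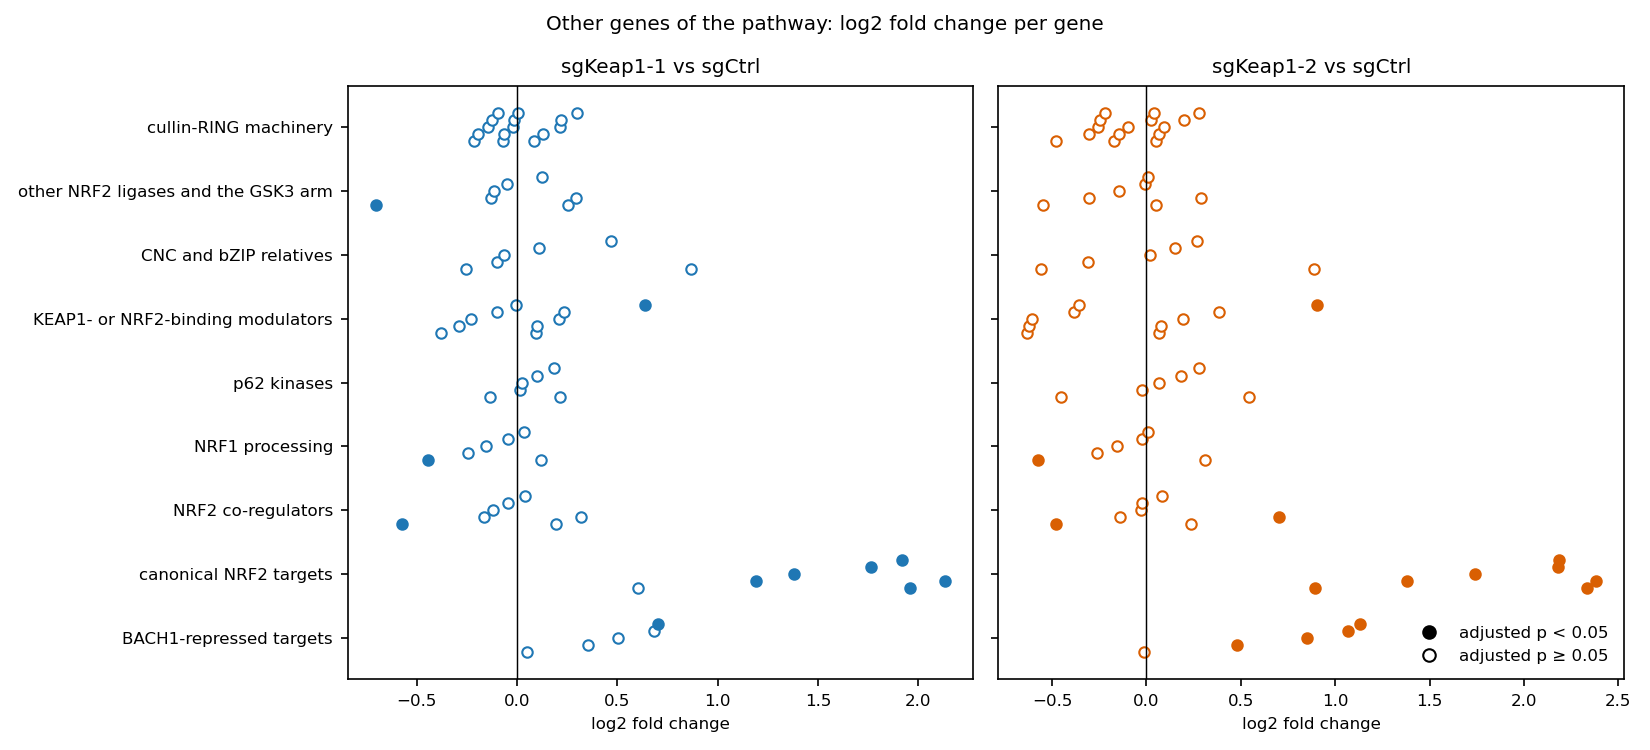
Log2 fold change (x axis) against sgCtrl of each tested gene in the 7 lists of further regulators and in the lists of canonical NRF2 targets and BACH1-repressed targets, for sgKeap1-1 on the left and sgKeap1-2 on the right. Points are spread vertically within a list only for legibility, filled points have an adjusted p under 0.05, and the canonical targets lie between 0.60 and 2.38 while no gene of the cullin-RING machinery is filled.

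The genes that BACH1 represses were read beside BACH1. Of 5 such genes, 1 rose with sgKeap1-1, beside 2.80% of all features, and 4 with sgKeap1-2, beside 5.96%, with median log2 fold changes of 0.50 and 0.85. FTL, the ferritin light chain, rose by 0.70 and 1.13 on the log2 scale (adjusted p = 0.00248 and 2.48e-05 from edgeR). FTH1, SLC48A1 and BLVRB rose with sgKeap1-2 by 0.48, 0.85 and 1.07. FTH1 lost that call without sgCtrl replicate 1 (adjusted p = 0.089 from edgeR) or sgKeap1-2 replicate 2 (0.0575), and SLC48A1 without sgCtrl replicate 1 (0.104) or 2 (0.112) or sgKeap1-2 replicate 1 (0.131). With sgKeap1-1, BLVRB was also called by DESeq2 (adjusted p = 0.0397) and BLVRB and FTH1 by edgeR with the replicate block (adjusted p = 0.0219 and 0.0351), and a difference between the guides was not called for any of the 5. HMOX1, the heme oxygenase that is the best known BACH1 target, was at 32.1, 42.2 and 39.0 CPM in sgCtrl, at 41.7, 30.7 and 45.0 CPM with sgKeap1-1 and at 33.2, 29.0 and 49.7 CPM with sgKeap1-2. Its groups overlapped fully, with log2 fold changes of 0.05 and -0.01 (adjusted p = 0.957 and 0.985 from edgeR).

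Among 9881 features with at least 5 CPM on average, those whose log2 CPM ran most like SQSTM1 over the 9 libraries were ABCC2 and B4GALNT1 (Pearson r 0.993 each) and TSPO (r 0.992). The drug efflux pump ABCC2 had log2 fold changes of 1.04 and 1.51, B4GALNT1 of 1.71 and 2.40 and the mitochondrial outer membrane protein TSPO of 2.68 and 3.49 with sgKeap1-1 and sgKeap1-2. For NFE2L2 the most similar were ACSF2 (r 0.967), SPTLC3 (r 0.952) and RMND5A (r 0.951). For KEAP1 they were CD14 (r 0.948), PPIP5K2 (r 0.933) and ZFP90 (r 0.912). The 9 points of each r share their groups and replicate numbers, and the values are a description of these libraries.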

How the data were processed

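The data were whole-number read counts per gene from QuantSeq libraries of 9 HepG2 samples. The authors trimmed the reads, aligned them with STAR and counted them with featureCounts, and deposited the counts without normalization. The submitters' processing notes list FastQC 0.72, cutadapt 1.16, STAR 2.7.5b, featureCounts 1.6.3, limma 3.40.6 and hg38, while the study's methods give GRCh37. The annotation is not given in the sources used here. Coordinates are matches made here to GRCh37, or RefSeq windows of GRCh38.p14 where stated.

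Rows without a gene number (1052 of 12798, 1.34% of counts) were left out of library sizes and tests. Symbols were found for 11740 of 11746 numbered rows, and 3 numbers occur on 2 rows. After filterByExpr, 11064 features were fitted with the quasi-likelihood test of edgeR 4.0.16 (R 4.3.3), all 9 libraries together, the group as the only factor, TMM scaling and Benjamini-Hochberg adjustment, with a threshold of 0.05. Each SE was taken as the absolute log2 fold change over the root of the F statistic. Levels are CPM on TMM-scaled library sizes, and log2 CPM used a prior count of 2. Libraries of 1 group differed by 4.63 to 24.1 in chi-square per degree of freedom, so none was a copy. Whether replicate numbers pair libraries was checked by the correlation of deviations from the group mean: it was 0.23, 0.38 and 0.16 for the 3 same-numbered sgCtrl and sgKeap1-1 pairs, all over 0.1, and as low as -0.01 for those with sgKeap1-2, so blocked values stand in the report for sgKeap1-1 against sgCtrl where they change a call. The blocked fit itself took all 9 libraries, those of sgKeap1-2 included. The script was tested on simulated data. The members and lists were chosen with earlier results of these data known. Named genes are all members, other listed regulators with an adjusted p under 0.05 for either guide, and 3 similar genes for KEAP1 and each called member. NQO1, the hepatocyte markers, the BACH1-repressed targets, ULK1, JUN and the neighbours at 3′ ends are named outside that rule, after their values were seen. Alternatives were a replicate block, DESeq2 1.42.0 (size factors and Wald test), library size only, limma-voom (limma 3.58.1), other filters, only the groups compared, each library left out, and, added after seeing the data, the rows without a gene number kept.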

Additional observations from a re-analysis of the deposited data

How the results depend on the processing

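The count of regulators called changed with the replicate number as a block, to 3 with sgKeap1-1 and to 4 with sgKeap1-2 and with the mean of both guides, and further regulators called with sgKeap1-2 went to 11 of 57. With the block MAFG passed the threshold for each guide (log2 fold change 0.46 with sgKeap1-1, adjusted p = 0.0256, and 0.47 with sgKeap1-2, adjusted p = 0.0138, from edgeR), as did NFE2L2 with sgKeap1-1 (adjusted p = 0.0437) and BACH1 with sgKeap1-2 (0.63, adjusted p = 0.0391). Among the further regulators, BTRC then passed it with sgKeap1-2 (log2 fold change -0.53, adjusted p = 0.0469 from edgeR). Beside these, the features called of 11064 went from 465 to 977, from 1196 to 1956 and, for the mean of both guides, from 1115 to 1840. Between the guides the features called went from 2 to 26 with the block, to 19 with DESeq2 and to 0 with limma-voom, a minimum of 10 counts in every library or only the groups compared, and 0 regulators were called in any of these. The libraries of 1 number share a prefix in their descriptions whose meaning is not given. Deviations from the group mean correlated at -0.01 to 0.52 between 9 same-numbered pairs, 7 of them over 0.1, and 7 of 9 libraries correlated best with their own number. All 3 sgCtrl and sgKeap1-1 pairs were over 0.1, and 1 pair each of sgKeap1-2 with sgCtrl and with sgKeap1-1 was not. The cause was not tested.

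With only the groups compared in the fit, NFE2L2 lost its call with sgKeap1-2 (adjusted p = 0.0549) and 1 regulator, SQSTM1, was called. RXRA lost its call with sgKeap1-2 there too (0.0537), and BTRC its call with sgKeap1-1 (0.0523). With library size only, the further regulators called with sgKeap1-1 went from 4 to 2, since BTRC (adjusted p = 0.0606) and DDI2 (0.0501) lost their calls. MAFG between the guides turned from -0.01 to 0.0047 with the block and to 0.0020 with library size only. SQSTM1 kept its direction and call against sgCtrl for both guides in all 18 alternatives each.

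Leaving out each library in turn gave 1 to 2 regulators called with sgKeap1-1, with sgKeap1-2 and with the mean of both guides, and 0 to 4, 3 to 5 and 2 to 5 further regulators. Log2 fold changes then spanned 0 for uncalled genes. With sgKeap1-1 this held for CUL3 (-0.087 to 0.046), MAFK (-0.24 to 0.15), NFE2L1 (-0.092 to 0.25) and HMOX1 (-0.060 to 0.20). With sgKeap1-2 it held for CUL3 (-0.13 to 0.15), KEAP1 (-0.12 to 0.11), MAFK (-0.060 to 0.42), NFE2L1 (-0.21 to 0.10), RBX1 (-0.015 to 0.16) and HMOX1 (-0.28 to 0.16). Between the guides it held for CUL3 (-0.12 to 0.16), MAFF (-0.040 to 0.46), MAFG (-0.30 to 0.34), MAFK (-0.036 to 0.48), NFE2L1 (-0.32 to 0.016) and NFE2L2 (-0.15 to 0.035). BACH1 and MAFF, at 42 to 177 reads a library, were the least deeply read regulators.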
